A study of Mus musculus with 6 samples.

Results

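The Fc gamma receptors and the molecules that carry their signal were followed as 7 genes, chosen by name out of the 55487 genes in the count files. They are the activating receptors Fcgr1, Fcgr3 and Fcgr4, the inhibitory receptor Fcgr2b, the shared signalling chain Fcer1g, the kinase Syk and the neonatal receptor Fcgrt. The choice was by name and role, with no threshold on a measured value, but with earlier results of these data known.

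Fc gamma receptors bind the constant part of IgG, so that a cell can hold and engulf whatever an antibody has coated. The mouse activating receptors pass the signal on through the common gamma chain FcεRIγ, the product of Fcer1g, whose tyrosine motif (ITAM) is phosphorylated by Src family kinases and then recruits Syk. Fcgr2b carries an inhibitory motif (ITIM) and recruits the lipid phosphatase SHIP-1, and the balance between it and the activating receptors sets the threshold for uptake. In the brain these receptors are carried mainly by microglia and by the macrophages of its borders, which take up antibody-bound material through them. The product of Fcgrt, FcRn, binds IgG inside endosomes and returns it to the surface.

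The samples were 6 cultures of cortical microglia, 3 Cre- and 3 Cre+, from neonatal CAG::CreERT2; Nr1d1fl/fl mice, in which both copies of Nr1d1, the gene for REV-ERBα, are flanked by loxP sites. All 6 cultures, the controls included, received 4-OHT at 1.5 µM for 2 days by the labels (the methods of the study give a shorter exposure), so the groups differed in the Cre transgene and not in the drug. The CAG promoter drives CreERT2 in every cell type of a culture and not only in microglia, and the methods place GM-CSF in the medium, a growth factor to which all libraries were therefore exposed. The sources do not say whether the cultures of a group came from separate litters or pups, or were wells of the same culture. A p-value therefore measures the spread between these cultures only. The study's text gives no sex for the cultures that were sequenced.

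Total RNA was sequenced from amplified cDNA, and the deposited counts are reads per gene. Library totals lay between 87545868 and 93942161 in Cre- and between 93701215 and 110909129 in Cre+. Levels are given in CPM, counts relative to a TMM-scaled library size of 1000000, and a gene was called when edgeR's quasi-likelihood test gave an adjusted p of at most 0.05 over the 11429 genes above 1 CPM in at least 4 libraries. By this rule 579 genes (5.07%) were called, 286 of them higher (2.5%) and 293 lower (2.56%) in Cre+. Nr1d1 itself, on chromosome 11, stood at 2.35, 1.20 and 1.64 CPM in Cre- and at 1.00, 0.945 and 1.08 CPM in Cre+. The groups lay apart, but the log2 fold change of -0.77 (SE 0.25) was not called (edgeR, adjusted p = 0.094). These counts cover the whole gene, so reads outside the floxed part are included.

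Of 10 microglial markers, 8 passed the expression filter. Csf1r, the receptor on which microglia depend for survival, averaged 466 CPM in Cre- and 462 CPM in Cre+. P2ry12 (0.610 and 0.722 CPM) and Sall1 (0.477 and 0.728 CPM), markers of microglia in the intact brain, were nearly absent from both groups. Itgam was the only called microglial marker (log2 fold change 0.18, edgeR adjusted p = 0.046). Among other cells that carry Fc receptors, markers of border macrophages summed to 61.4 to 63.5 CPM in Cre- and 74.0 to 90.5 CPM in Cre+. That sum was carried by Mrc1, which was called higher (log2 fold change 0.47), while Pf4 was called lower (-0.79). Neutrophil markers summed to 9.09 to 11.1 CPM in Cre- and 7.08 to 7.93 CPM in Cre+. Markers of mast cells (0.314 to 0.598 and 0.0365 to 0.198 CPM), B cells (0.217 to 0.977 and 0.192 to 0.494 CPM), T and NK cells (0.494 to 0.963 and 0.593 to 0.784 CPM), monocytes (1.10 to 1.79 and 1.4 to 1.81 CPM) and dendritic cells (3.13 to 4.75 and 3.63 to 4.15 CPM) were low. Of cells that do not belong to the blood lineage, the astrocyte list summed to 12.6 to 14 CPM in Cre- and 11.3 to 14.9 CPM in Cre+, the oligodendrocyte lineage to 72.3 to 82.0 and 69.9 to 74.6 CPM, and neurons to 2.40 to 3.19 and 1.93 to 2.06 CPM. The list of fibroblasts and mural cells summed to 1.41 to 2.55 and 0.923 to 0.976 CPM, and that of endothelial cells, with Flt1 called higher (0.33), to 20.1 to 21.3 and 23.6 to 26.8 CPM. No marker was at 0 in all 6 libraries. Their part in the results on the Fc receptors was not tested. In these bulk samples, fewer cells of a type and less RNA per cell cannot be told apart.

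All 7 genes passed the expression filter, and they differed from each other far more than the groups did. Levels of different genes were compared in FPKM, which divides by gene length. Fcer1g was the most abundant, at a mean of 1300 FPKM in Cre- and 1244 FPKM in Cre+ (rank 36 of the genes tested), followed by Fcgr3 at 662 and 694 FPKM (rank 66). Fcgr4 came next at 45.9 and 56.4 FPKM, then Fcgrt at 32.6 and 29.4 FPKM and Syk at 11.7 FPKM in both groups. The inhibitory Fcgr2b (9.50 and 8.28 FPKM) and the high-affinity receptor Fcgr1 (6.80 and 5.10 FPKM) were the least abundant. No neighbours in this order overlapped over the 6 libraries. The order rests on the lengths given with the counts, which for Fcgr2b is 5790 bases, against 3544 in its longest protein-coding transcript. In CPM, without length, Fcgr2b (56.0) was near Fcgr4 (58.7) in Cre-. Fcgr3 made up 91.4% ± 0.0665 (SD, n = 3) of the summed FPKM of the 4 IgG receptors in Cre- and 90.8% ± 0.775 (SD, n = 3) in Cre+, so any sum over the receptors mostly reads Fcgr3.

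Between the groups, edgeR called 2 of the 7 genes, against 5.07% of all genes tested, and DESeq2 called 3, against 7.75%. limma's voomWithQualityWeights called 2, against 5.0%. Fcgr1 fell and Fcgr4 rose, so the called genes moved in opposite directions. In 5 of the 7 genes the groups did not overlap, 4 of them lower in Cre+. Over all genes tested, 24.0% had groups that did not overlap, and 11.7% were of this kind and lower. The 7 genes were chosen with earlier results known, so these shares are a description. For a single gene, an exact permutation test of 3 against 3 cultures cannot give a two-sided p below 0.1, and that value was reached by the 5 genes whose groups lay apart.

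**Figure D1:**
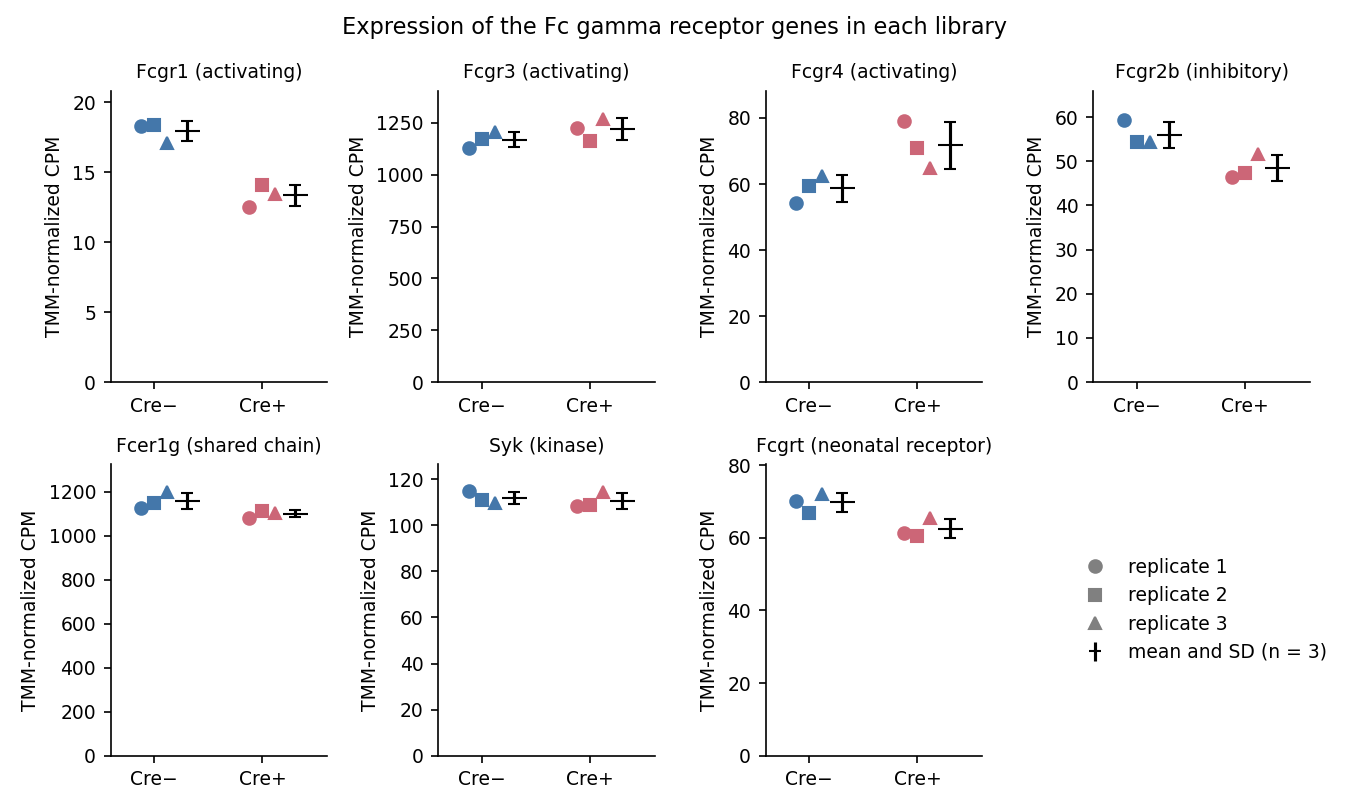
TMM-scaled CPM of the 7 genes in each culture, 1 panel per gene with its own axis, with points for the 3 Cre- and the 3 Cre+ cultures and bars for mean and SD. Fcgr1 lies between 17.1 and 18.4 CPM in Cre- and between 12.5 and 14.1 CPM in Cre+, Fcgr4 is higher in every Cre+ culture, and the groups overlap for Fcgr3 and Syk.

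Fcgr1 encodes FcγRI (CD64), the high-affinity receptor that binds IgG without prior crosslinking. The gene (ENSMUSG00000015947) lies on chromosome 3, from 96282909 to 96293969 on the minus strand of GRCm38. Fcgr1 stood at 18.3, 18.4 and 17.1 CPM in Cre- and at 12.5, 14.1 and 13.4 CPM in Cre+, from 1311 to 1697 reads per library. Every Cre+ culture lay below every Cre- culture. The mean fell by 25.6%, from 17.9 ± 0.716 (SD, n = 3) to 13.3 ± 0.776 CPM (SD, n = 3). The log2 fold change was -0.43 with a standard error of 0.09 (edgeR, adjusted p = 0.011), and the call held in all 6 fits that each left out 1 library (edgeR, adjusted p from 0.0205 to 0.0489).

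Fcgr4 encodes FcγRIV, an activating receptor of intermediate affinity found on monocytes, macrophages and neutrophils. The gene (ENSMUSG00000059089) lies on chromosome 1, from 171018920 to 171029761 on the plus strand, between Fcgr2b and Fcgr3. Fcgr4 stood at 54.3, 59.5 and 62.4 CPM in Cre- and at 79.0, 71.0 and 65.0 CPM in Cre+. The groups lay apart by the narrow gap between Cre- replicate 3 and Cre+ replicate 3. The mean went from 58.7 ± 4.08 to 71.7 ± 7.07 CPM (SD, n = 3 each), a rise of 22.0%, with a log2 fold change of 0.29 and a standard error of 0.07 (edgeR, adjusted p = 0.033). This call was less secure than that of Fcgr1. It was lost when Cre- replicate 1 or 2 or Cre+ replicate 1 or 2 was left out and held without either replicate 3, with log2 fold changes from 0.21 to 0.35 over these 6 fits (edgeR, adjusted p from 0.0185 to 0.141).

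Fcgr3 encodes FcγRIII (CD16), the low-affinity activating receptor that binds immune complexes. The gene (ENSMUSG00000059498) runs from 171051174 to 171064935 on the minus strand of chromosome 1. Fcgr3 stood at 1129, 1175 and 1205 CPM in Cre- and at 1224, 1163 and 1268 CPM in Cre+. The groups overlapped. Fcgr3 was not called (log2 fold change 0.06, SE 0.04, edgeR adjusted p = 0.50), and the interval of 1.96 standard errors around its log2 fold change ran from -0.02 to 0.14.

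Promoters are among the places where interferon-responsive factors, PU.1 and REV-ERBα can bind, and sites further away were not searched. The 250 bases before the RefSeq start site (GRCm38.p6) are shown for both called receptors and for Fcgr2b. They were searched on both strands for the gamma-activated sequence TTCNNNGAA of interferon-responsive genes, for the PU.1 core GAGGAA, for a GAAA pair spaced by 2 bases as part of an interferon-stimulated response element, and for AGGTCA, the core of the REV-ERB response element. Matches are in capitals, and a PU.1 core on the opposite strand reads TTCCTC.
Fcgr1, chr3:96293970-96294219, minus strand: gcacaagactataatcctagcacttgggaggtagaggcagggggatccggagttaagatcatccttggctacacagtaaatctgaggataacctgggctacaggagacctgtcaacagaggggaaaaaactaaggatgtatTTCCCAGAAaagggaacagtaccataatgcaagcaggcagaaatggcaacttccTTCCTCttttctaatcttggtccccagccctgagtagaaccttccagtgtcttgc
Fcgr4, chr1:171018676-171018925, plus strand: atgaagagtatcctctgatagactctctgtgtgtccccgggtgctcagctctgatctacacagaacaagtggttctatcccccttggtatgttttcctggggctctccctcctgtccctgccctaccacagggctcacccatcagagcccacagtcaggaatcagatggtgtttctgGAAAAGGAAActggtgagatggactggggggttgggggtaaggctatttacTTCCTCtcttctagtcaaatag
Fcgr2b, chr1:170976072-170976321, minus strand: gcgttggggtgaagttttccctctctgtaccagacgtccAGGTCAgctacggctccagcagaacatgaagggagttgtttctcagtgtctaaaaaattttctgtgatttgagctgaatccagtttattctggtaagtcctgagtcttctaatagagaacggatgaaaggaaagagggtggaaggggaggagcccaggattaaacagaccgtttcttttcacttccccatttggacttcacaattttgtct
The Fcgr1 window held TTCNNNGAA from base -109 to -101 before the start, a match found in the promoters of 7.18% of 27025 genes, and a PU.1 core from -55 to -50. The Fcgr4 window held the spaced GAAA pair from -73 to -64, found in 3.04% of promoters, and a PU.1 core from -22 to -17, found in 23.1%. AGGTCA, which 13.8% of promoters hold, occurred only in the window of Fcgr2b, from -211 to -206, among the start sites of the 7 genes. The windows of Fcgr3 held a PU.1 core right before the start, as did that of 1 of the 2 start sites of Syk, and those of Fcer1g and Fcgrt held none of the 4 motifs. These are matches of letters, the bases beside them were not searched, and binding was not measured.

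Fcgr2b encodes FcγRIIB, the inhibitory receptor. The gene (ENSMUSG00000026656) runs from 170958617 to 170976547 on the minus strand of chromosome 1. Fcgr2b stood at 59.3, 54.3 and 54.4 CPM in Cre- and at 46.3, 47.3 and 51.7 CPM in Cre+. All Cre+ cultures lay below all Cre- cultures, and the mean went from 56.0 ± 2.90 to 48.5 ± 2.86 CPM (SD, n = 3 each). The log2 fold change of -0.21 (SE 0.06) missed the threshold in edgeR (adjusted p = 0.075) and passed it in DESeq2 (adjusted p = 0.0269).

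Reads of Fcgr2b and Fcgr3 are alike in part. The extracellular parts of both receptors share a stretch of 509 aligned bases with 18 mismatches (96.5% identity). All of it is coding and lies in exons 3 and 4. It covers 14.4% of the Fcgr2b transcript and 37.8% of the Fcgr3 transcript, and its longest run without a mismatch is 129 bases. The study's methods give paired-end reads of 150 bases, so a full-length read inside the stretch covers a base that differs. No other pair among the 7 genes shared a stretch of at least 100 bases at 90% identity. The first 150 bases of the stretch, in exon 3 of each gene, are shown 5′ to 3′ on the minus strand of GRCm38 with the 12 bases that differ in capitals.
Fcgr2b, chr1:170968084-170968233: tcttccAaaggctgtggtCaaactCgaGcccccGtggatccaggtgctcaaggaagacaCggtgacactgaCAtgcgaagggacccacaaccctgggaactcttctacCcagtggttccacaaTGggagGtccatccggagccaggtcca
Fcgr3, chr1:171057795-171057944: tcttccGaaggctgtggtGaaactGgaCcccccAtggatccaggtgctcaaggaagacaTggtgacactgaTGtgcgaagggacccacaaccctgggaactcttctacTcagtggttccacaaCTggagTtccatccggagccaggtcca
Fcgr3 had 20.9 times the reads of Fcgr2b in Cre- and 25.2 times in Cre+. How reads of the stretch were assigned cannot be seen in gene counts and was not tested, so both levels, and the ratios built on them, are uncertain to that extent.

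The ratio of activating to inhibitory receptor was taken per library from the FPKM values. The sum of Fcgr1, Fcgr3 and Fcgr4 over Fcgr2b was 68.4, 78.0 and 79.9 in Cre- and 96.5, 89.5 and 88.2 in Cre+. The groups did not overlap, at a mean of 91.4 ± 4.48 against 75.4 ± 6.17 (SD, n = 3 each), which is 1.21-fold. Fcgr3, which makes up most of the sum, had a log2 fold change of 0.06, and the denominator Fcgr2b had one of -0.21. Neither was called by edgeR, so the ratio reflects the lower Fcgr2b more than a rise of the activating sum. Taken from counts without length the ratio was 26.9 against 22.3, again 1.21-fold, so the size of the ratio but not its change rests on the length of 5790 bases given to Fcgr2b.

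The receptors entered that ratio unequally. Fcgr3 to Fcgr2b was 63.5, 72.2 and 73.9 in Cre- and 88.1, 82.0 and 81.8 in Cre+, a difference of 0.27 in log2. Fcgr4 to Fcgr2b was 4.22, 5.05 and 5.29 in Cre- and 7.86, 6.92 and 5.79 in Cre+, a difference of 0.49 in log2. Fcgr1 to Fcgr2b went the other way, from 0.690, 0.757 and 0.704 in Cre- to 0.605, 0.666 and 0.580 in Cre+, a difference of -0.22 in log2. In none of the 3 did the groups overlap, and each exact permutation test gave p = 0.1, the smallest value that 3 against 3 cultures allow. All 3 share the denominator Fcgr2b, so they are not separate results. The ratio of Fcgr4 to Fcgr1, chosen after the values were seen and given without a test, was 6.12, 6.67 and 7.52 in Cre- and 13, 10.4 and 9.98 in Cre+, a 1.64-fold difference in mean.

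**Figure D2:**
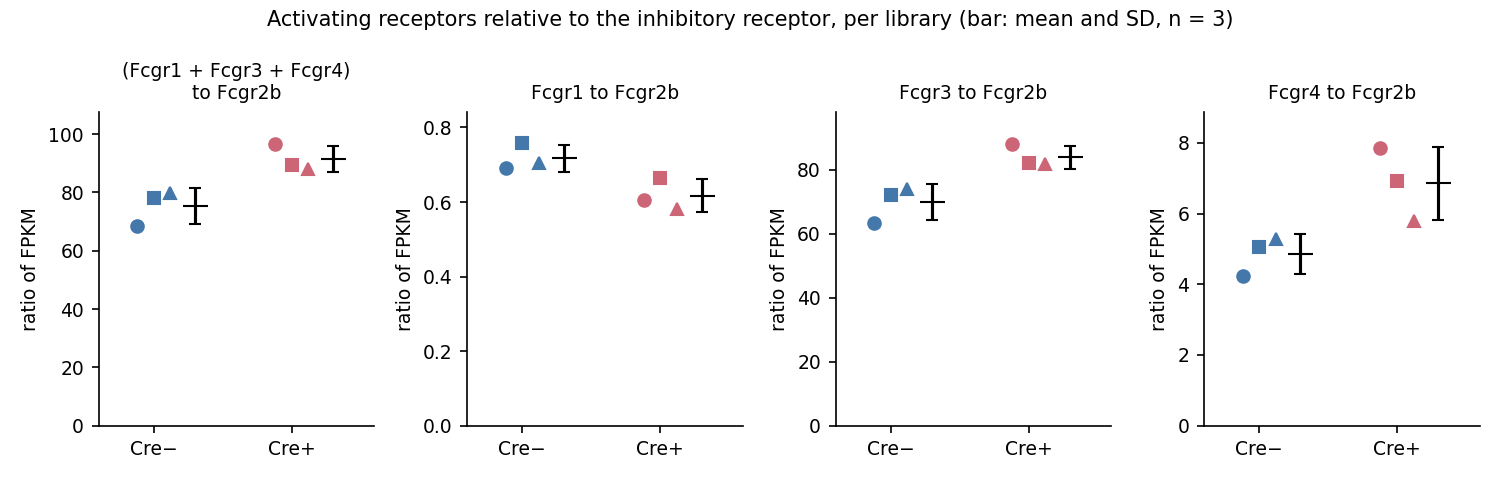
Ratios of FPKM per culture for the activating receptors against Fcgr2b, 1 panel per ratio, with points for the 3 Cre- and the 3 Cre+ cultures and bars for mean and SD. The summed ratio lies between 68.4 and 79.9 in Cre- and between 88.2 and 96.5 in Cre+, and Fcgr1 to Fcgr2b is lower in Cre+.

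Fcer1g (ENSMUSG00000058715, chromosome 1, 171229572 to 171234365, minus strand) encodes the chain through which the activating receptors signal and which holds them at the surface. Fcer1g stood at 1124, 1148 and 1199 CPM in Cre- and at 1081, 1114 and 1104 CPM in Cre+. The groups lay just apart, with a mean of 1157 ± 38.3 against 1100 ± 16.8 CPM (SD, n = 3 each). The difference was not called (log2 fold change -0.07, SE 0.04, edgeR adjusted p = 0.32).

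Syk (ENSMUSG00000021457, chromosome 13, 52583173 to 52648792, plus strand) encodes the kinase that binds the phosphorylated chain. Syk stood at 115, 111 and 110 CPM in Cre- and at 108, 109 and 114 CPM in Cre+. The groups overlapped, the log2 fold change was -0.02 (SE 0.05, edgeR adjusted p = 0.90), and the interval of 1.96 standard errors around it ran from -0.11 to 0.08. Its sign was positive with other filters on low counts (0.06 without a filter).

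Fcgrt (ENSMUSG00000003420, chromosome 7, 45092990 to 45103851, minus strand) stood at 70.2, 66.9 and 72.1 CPM in Cre- and at 61.4, 60.6 and 65.4 CPM in Cre+. The Cre+ cultures were all lower, with a mean of 62.5 ± 2.60 against 69.8 ± 2.66 CPM (SD, n = 3 each). Fcgrt was not called (log2 fold change -0.16, SE 0.06, edgeR adjusted p = 0.12). B2m, which encodes the light chain that FcRn needs to leave the endoplasmic reticulum, had a log2 fold change of -0.00.

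**Figure D3:**
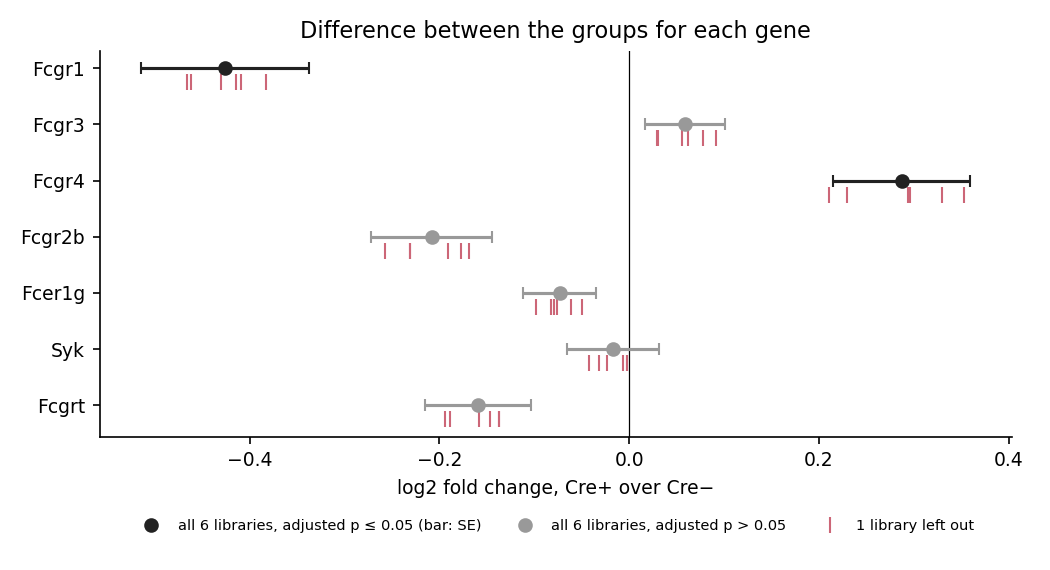
Log2 fold change of the 7 genes, Cre+ minus Cre-, with dark points for called genes, bars of 1 standard error, ticks for the 6 fits that each left out 1 library, and a line at 0. Fcgr1 at -0.43 and Fcgr4 at 0.29 are the called genes, and the other 5 lie between -0.21 and 0.06.

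Fcgr2b, Fcgr4, Fcgr3 and Fcer1g lie within 275.748 kb of chromosome 1, a span that holds 17 genes of the files, 7 of which were tested. The log2 fold changes along it were -0.21, 0.29, 0.06 and -0.07, so Fcgr2b and its neighbour Fcgr4 differed in sign. Within 500 kb of these 4 genes, 30 other genes were tested, at log2 fold changes with a median of 0.02 and a range from -0.33 to 0.52. Of these 30, edgeR, DESeq2 and limma's voomWithQualityWeights each called 0, and 3 had an unadjusted p under 0.05 in edgeR's quasi-likelihood test. Tomm40l, next to Fcer1g, had a log2 fold change of 0.02. Outside the receptors, Gm2962 next to Fcgr2b had 0.08 and Cfap126 next to Fcgr3 had -0.12. By exons, with transcripts that retain introns left out, only Fcgr2b overlapped another gene, Gm38204 on the opposite strand. The overlap was 155 of 4207 bases, and Gm38204 reached at most 0.0230 CPM. Counted bases outside these exons were not searched.

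**Figure D4:**
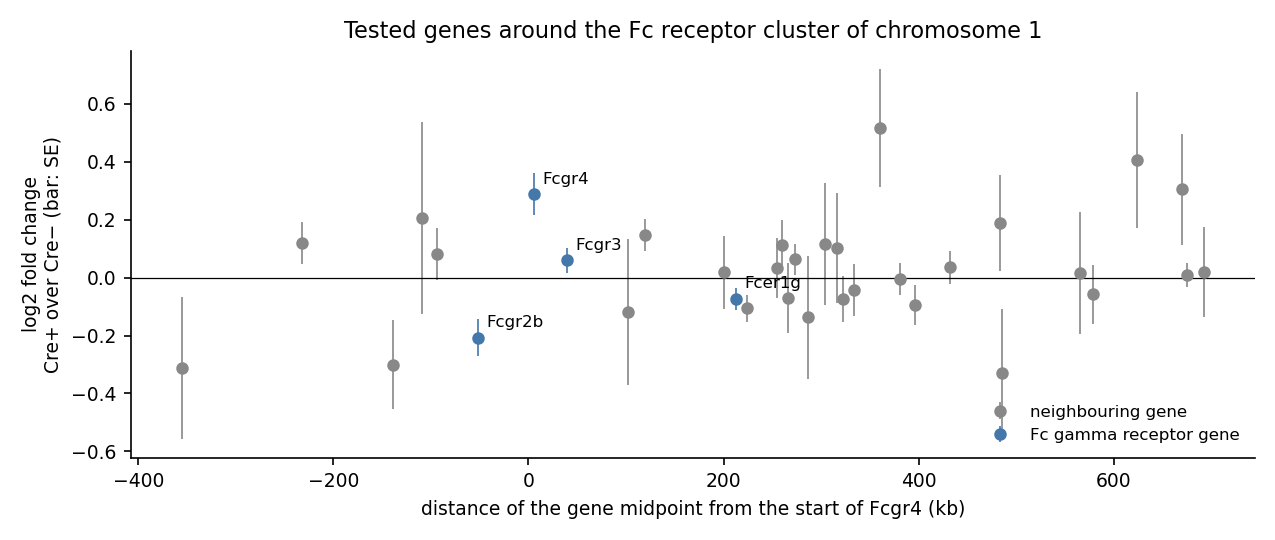
Log2 fold change of the genes tested around the receptor cluster of chromosome 1 against distance in kb, with bars of 1 standard error. Fcgr4 at 0.29 stands between Fcgr2b at -0.21 and Fcgr3 at 0.06, and no neighbouring gene was called.

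The machinery downstream of the receptors was read as 3 lists, and edgeR called 8 of its genes, all of them higher. Over all 11429 genes tested, 5.07% were called, 2.5% were called higher, and 5781 had a positive log2 fold change. These values are the background for every list below. In the activating relay, from Src kinases through adaptors to phospholipase C and PI3-kinase, 28 of 29 genes were tested and 3 were called, all higher. The median log2 fold change was 0.01 over the list and 0.00 over all genes. All 3 encode adaptors, namely Lat (0.39, edgeR adjusted p = 0.026), Blnk (0.37, adjusted p = 0.001) and Sh3bp2 (0.25, adjusted p = 0.013). Blnk, a scaffold that Syk phosphorylates, averaged 96.3 ± 5.92 CPM in Cre- and 125 ± 6.39 CPM in Cre+ (SD, n = 3 each) and kept its call without any 1 library. Lat lost its call in 5 of these 6 fits, holding only without Cre- replicate 2 (log2 fold change 0.31 to 0.51 over the 6 fits), and Sh3bp2 lost it without replicate 3 of either group (0.21 to 0.30). Lyn, a Src kinase that phosphorylates both ITAM and ITIM, had a log2 fold change of -0.00. Prkcd was called lower by DESeq2 but not by edgeR (-0.16).

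In the inhibitory relay, 14 of 16 genes were tested and 2 were called, both higher, with a median of 0.03. They were Dok2 (log2 fold change 0.25, edgeR adjusted p = 0.022), an adaptor that binds Ras GTPase-activating protein, and Cblb (0.37, adjusted p = 0.026), a ubiquitin ligase. Neither call was stable when 1 library was left out, though the direction held. Dok2 kept its call only without Cre- replicate 3 or Cre+ replicate 1 (0.21 to 0.29 over the 6 fits), and Cblb only without Cre+ replicate 2 (0.31 to 0.46). Dok1 (0.21) was called higher by DESeq2 but not by edgeR (adjusted p = 0.078). Inpp5d, the gene for SHIP-1, overlapped between the groups (-0.09, edgeR adjusted p = 0.56), as did Ptpn6, the gene for SHP-1 (-0.01, adjusted p = 0.92).

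In the actin machinery of uptake, all 24 genes were tested, 19 had a positive log2 fold change, and 3 were called, all higher, with a median of 0.04. Actr2, a subunit of the Arp2/3 complex, averaged 512 ± 15.1 CPM in Cre- and 601 ± 23.2 CPM in Cre+ (SD, n = 3 each, log2 fold change 0.23, edgeR adjusted p = 0.005). Dock2, an exchange factor for Rac, averaged 111 ± 7.09 and 135 ± 2.97 CPM (SD, n = 3 each, 0.28, adjusted p = 0.006). Rac2 (0.18, adjusted p = 0.043) lost its call in 4 of 6 fits and held only without replicate 2 of either group (0.15 to 0.23). Actr2 and Dock2 kept theirs in all 6.

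Other receptors and adaptors that signal through Syk moved in both directions. Of 14 genes, 12 were tested, 3 were called higher and 2 lower, with a median of -0.16. The largest change was in Clec4n, which encodes Dectin-2, a receptor for fungal mannans that pairs with the Fcer1g chain. Clec4n stood at 225, 233 and 242 CPM in Cre- and at 126, 152 and 142 CPM in Cre+, a log2 fold change of -0.74 (SE 0.06). Its neighbour Clec4d, whose product also pairs with that chain, was called lower as well (-0.24, edgeR adjusted p = 0.003), but not without a filter on low counts. Clec7a, which encodes Dectin-1 with a motif of its own, was called higher (0.25, adjusted p = 6.18e-04), as were Cd300ld (0.31, adjusted p = 0.002) and Cd300lb (0.19, adjusted p = 0.020). Of these, Cd300lb was not called in 3 of 6 fits, those without Cre- replicate 3, Cre+ replicate 1 or Cre+ replicate 3 (0.15 to 0.21). Clec4e was called lower by DESeq2 but not by edgeR. Tyrobp, the gene for the related chain DAP12, had a log2 fold change of -0.11 (edgeR, adjusted p = 0.12) and its partner Trem2 one of 0.00.

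Other inhibitory receptors mostly had positive log2 fold changes (12 of the 15 tested out of 16 listed, median 0.20), and 3 were called, all higher. They were Pirb (0.21, edgeR adjusted p = 0.012), Clec12a (0.27, adjusted p = 0.046) and Lair1 (0.20, adjusted p = 0.044), which like Fcgr2b carry an ITIM. The groups overlapped for Clec12a. Pirb lost its call without Cre- replicate 1 or 3 (0.19 to 0.23), Clec12a held only without Cre- replicate 2 or Cre+ replicate 1 (0.21 to 0.34), and Lair1 only without Cre- replicate 2 (0.15 to 0.25). Siglecf was called higher by DESeq2 but not by edgeR. Sirpa, an ITIM receptor for CD47, went the other way (-0.14) and was called lower by DESeq2 and by voomWithQualityWeights but not by edgeR (adjusted p = 0.066). Fcgr2b, at -0.21, thus had the opposite sign to most of the list.

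Of 14 other antibody receptors and partners, 4 were tested. Among them 0 were called by edgeR, 0 by DESeq2 and 0 by voomWithQualityWeights, and 0 had an unadjusted p under 0.05, at a median log2 fold change of 0.24. Fcrl1 (0.43, edgeR adjusted p = 0.49) and Fcrls (0.27, adjusted p = 0.53), Fc receptor-like genes, were at 1.34 and 2.28 CPM in Cre-, and their groups overlapped.

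All 8 factors known to drive Fcgr1, the interferon-gamma pathway and PU.1 among them, were tested and 0 were called by edgeR or by voomWithQualityWeights, at a median log2 fold change of -0.05. By unadjusted p under 0.05 in edgeR's quasi-likelihood test, 1 was higher and 3 were lower, and DESeq2 called 2 lower. Those were Irf8 (-0.15, edgeR adjusted p = 0.061), which lay at 187 to 198 CPM in Cre- and 170 to 176 CPM in Cre+, and Jak2 (-0.52, edgeR adjusted p = 0.080), whose groups overlapped. Without Cre- replicate 2 Jak2 was called by edgeR (-0.66).

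Over the 7 lists, 16 of 105 genes were called (15.2%), 14 higher and 2 lower, against 5.07% of all genes tested. The genes were listed with earlier results of these data known, so that this share is a description.

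**Figure D5:**
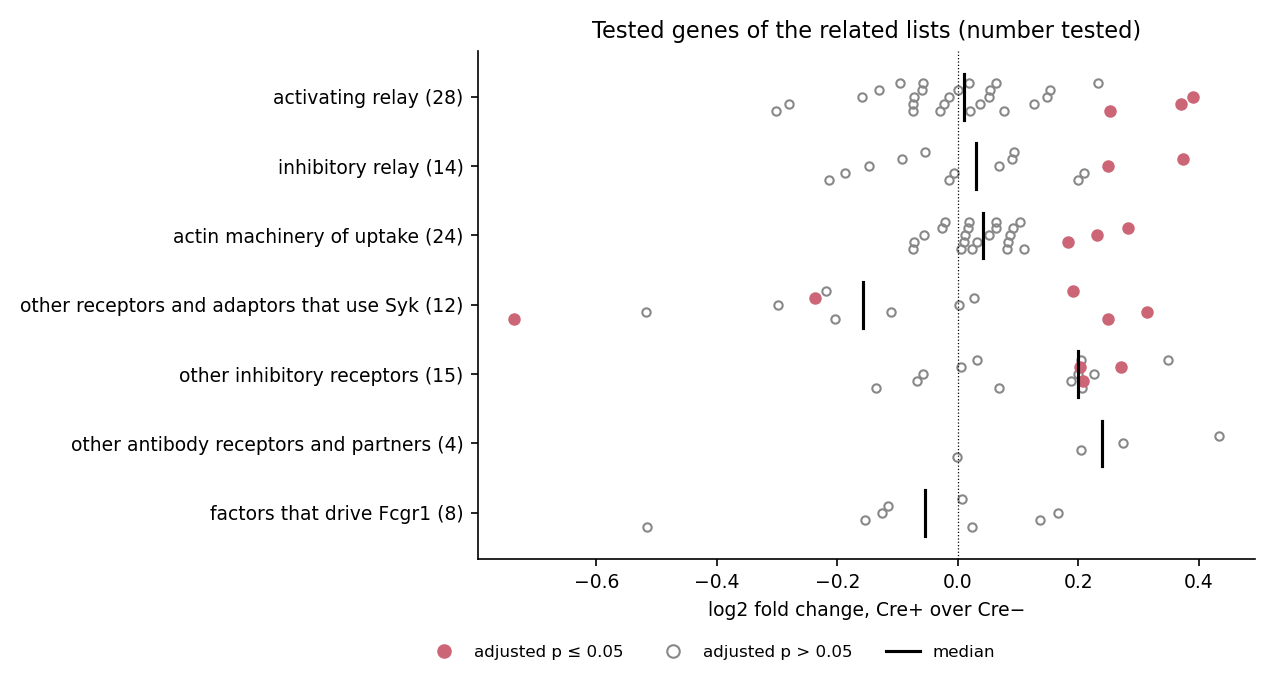
Log2 fold change of each tested gene in the lists around the receptors, 1 row per list, with filled points for genes called by edgeR and a line for the list's median. The actin list lies mostly above 0, Clec4n at -0.74 is the lowest point of the Syk-coupled list, and the factors that drive Fcgr1 hold no called gene.

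The genes whose levels over the 6 libraries were most like those of Fcgr1 were Lpcat2, Tlr2 and Cyth1, at a root mean square difference of 0.027, 0.033 and 0.044 in centred log2 CPM. All 3 were called lower, Lpcat2 with a log2 fold change of -0.42, Tlr2 of -0.41 and Cyth1 of -0.43. Likeness was measured over both groups, so log2 fold changes near that of the receptor follow from the choice, for Fcgr4 as well. Lpcat2 remodels phospholipids, Tlr2 is the receptor for bacterial lipoproteins, and Cyth1 is an exchange factor for ARF GTPases. For Fcgr4 they were Mtpap (0.042), Slc30a7 (0.043) and Smc5 (0.047), with log2 fold changes of 0.29, 0.26 and 0.30, of which only Slc30a7 was called.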

How the data were processed

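The authors deposited raw counts, the reads falling on each Ensembl gene of GRCm38, without normalization. STAR 2.7.9a and featureCounts 2.0.3 are named in the submitters' processing notes, and strand use in counting is not given in the sources used here. Beside them the authors deposited CPM, which divide by the library total, and FPKM, which divide by gene length too. CPM printed here were computed from the counts with TMM scaling. FPKM printed here are the deposited values, which rest on library totals without TMM scaling.

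The 7 genes and all gene lists were chosen with earlier results of these data known. Genes named by rule are the 7 genes, the called genes of each list or, where none was called, the 2 with the smallest p, the nearest tested neighbours (1 of them is not reported here), and the 3 genes most like each called receptor gene. Lyn, Prkcd, Dok1, Inpp5d, Ptpn6, Clec4e, Tyrobp, Trem2, Siglecf, Sirpa and B2m were named after their values were seen.

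Genes of ribosomal RNA biotypes (356) were left out. The genes that exceeded 1 CPM in 4 or more libraries were kept and scaled by TMM, as in the study's methods. They were fitted together with edgeR 4.0.16 (glmQLFit and glmQLFTest, R 4.3.3) and Benjamini-Hochberg adjustment, without covariates. The study's own fit was limma's voomWithQualityWeights, run here as an alternative. Standard errors are the log2 fold change over the square root of F. The script was tested on simulated data. Biotypes came from GENCODE M21 (55227 of 55487 genes matched), promoters from RefSeq (GRCm38.p6), and similar transcript stretches from blastn 2.17.0. The coefficient of variation between cultures was 10.0%, and counts differed between any pair of libraries by more than counting noise (chi-square per degree of freedom 13.1 to 62.0). Averaged over genes, the error was therefore not set by depth alone. Its part in genes with few reads was not tested. Alternatives were other scalings and filters, DESeq2 1.42.0, limma 3.58.1, the replicate number as a block, and leaving out each library. Protein sequences were not used here.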

Additional observations from a re-analysis of the deposited data

How the results depend on the processing

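Over all genes, 579 were called, against 1528 without a filter on expression, 886 with DESeq2 and 321 to 435 when 1 library was left out. Of the 7 genes, 2 were called, and between 1 and 2 when 1 library was left out. Fcgr1 was called under every alternative run (adjusted p from 1.31e-04 to 0.0489), and Fcgr4 ranged from 0.21 to 0.35 in log2 when 1 library was left out. Fcgr2b passed the threshold with DESeq2 alone (-0.21, adjusted p = 0.0269). Without a filter on expression the log2 fold changes of Fcer1g (0.0048) and Syk (0.062) changed sign, as did that of Syk (0.026) with filterByExpr, neither being called. Those filters moved the median of all genes by 0.08 and 0.04. The labels do not say whether same-numbered cultures were paired. Their deviations from the group means correlated at -0.0556 to 0.0067, which cannot settle this with 3 cultures per group. With the replicate block, 430 genes and 1 of the 7 genes were called, and Fcgr4 (0.28, edgeR adjusted p = 0.066) missed the threshold. For the 20 genes named from the lists, 130 of 140 values from alternatives other than leaving out a library kept direction and side of the threshold, 7 lost the call (Rac2, Clec4d, Clec12a and Lair1) and 3 gained it (Irf8 and Jak2). The cause of these changes was not tested. Groups of 3 were not tested for an outlying library.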
